A study of Caenorhabditis elegans with 6 samples.

Results

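Argonautes are the proteins that carry small RNAs to the transcripts they pair with, and the nematode Caenorhabditis elegans has many of them. This section describes the small RNAs that map to 10 Argonaute genes outside the worm-specific WAGO branch: prg-1, prg-2, csr-1, ergo-1, rde-1, alg-1, alg-2, alg-3, alg-4 and hpo-24, the last of which is called alg-5 in later annotation. They were chosen by gene name from the 42402 loci of the deposited tables, and all 10 were found there.

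The sequenced small RNAs came from whole young mothers fed HT115 bacteria with the L4440 vector at 20 °C. The 3 mutant strains, with 2 libraries each, were the single mutant hrde-1(tm1200), the outcrossed strain JH3745 with meg-3(ax3055) and meg-4(ax3052), called meg-3 meg-4, and a strain with all of these alleles, called the triple mutant from here on. HRDE-1 is a nuclear Argonaute of the germ line, and MEG-3 and MEG-4 build the P granules, germ line condensates of RNA and protein. The wild type N2 enters through the fold changes of the authors' deposited tables alone, with no error or number of replicates. The labels do not say whether the libraries of a strain came from separate cultures, so p-values measure the spread between these libraries, which may be technical.

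These Argonautes serve several small RNA pathways of the worm. PRG-1 binds the piRNAs of the worm, called 21U-RNAs, and PRG-2 is its close relative. CSR-1 binds small RNAs of the 22G class that are antisense to genes expressed in the germ line. ERGO-1, ALG-3 and ALG-4 bind 26G-RNAs, ERGO-1 in oocytes and embryos and ALG-3 and ALG-4 during sperm formation, and RDE-1 binds the primary small interfering RNAs made from foreign double-stranded RNA. ALG-1, ALG-2 and ALG-5 bind microRNAs (miRNAs). What was counted here is small RNA that maps to these genes, not the messenger RNA or protein they make and not the set of small RNAs that each protein carries. A 5′ polyphosphatase step lets small RNAs with a 5′ triphosphate, such as the 22G class, enter the library.

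The libraries held between 2384147 and 6780320 reads at annotated loci, and the reads at all 10 genes summed to 13114 and 5835 in hrde-1, 5907 and 2236 in triple mutants and 8078 and 3308 in meg-3 meg-4. Reads of the 21U-RNA class made up 2.57% to 4.21% of a library. miRNA reads took 18.2% and 19.5% of the hrde-1 libraries and between 28.6% and 32.1% of the other libraries. Reads at 6 yolk protein genes, which the intestine of egg-laying worms expresses, summed to 48.98 to 58.2 RPM, reads scaled to library size, in hrde-1, 71.3 to 123.2 in triple mutants and 288.3 to 3145 in meg-3 meg-4, with reads at all 6 genes in every library. Reads at 18 muscle genes summed to 41.9 to 66.0, 26.8 to 29.9 and 70.4 to 259.0 RPM in the same order, with act-5 and mlc-1 at 0 reads in both hrde-1 libraries and tni-3 at 0 in both triple mutant libraries. In both lists the meg-3 meg-4 replicate 2 library stood highest. Of the yolk protein genes limma, with the settings given for the comparisons, called 5 of 6 higher in meg-3 meg-4 than in hrde-1 and 5 of 6 lower in triple mutants than in meg-3 meg-4, with vit-6 at log2 fold changes of 4.46 (limma adjusted p = 0.00133) and −3.40 (limma adjusted p = 0.0116). At vit-6 the meg-3 meg-4 libraries held 685 and 7574 reads. Of the muscle genes 2 or 3 had enough reads for limma, and its calls were unc-54 higher in meg-3 meg-4 than in hrde-1, at 3.01 (limma adjusted p = 0.0101), and act-2 lower in triple mutants than in hrde-1, at −1.39 (limma adjusted p = 0.0313). The authors' deposited table for triple mutants over meg-3 meg-4 calls 0 of 6 yolk protein genes. Of 12 muscle genes with an adjusted p, it calls 4 lower and 0 higher. The part of these shares in the differences described here was not tested. In whole worms, fewer cells of a type and less RNA per cell cannot be told apart.

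The level of small RNA was compared between genes as RPM per kilobase of exon (RPM per kb), after scaling the 6 libraries together with the trimmed mean of M values (TMM). The germ line Argonaute genes of the piRNA and CSR-1 pathways stood highest, with a mean over the 6 libraries of 181.9 RPM per kb at prg-1, 116.2 at csr-1 and 63.7 at prg-2. The next genes were rde-1 at 13.6, hpo-24 at 11.7 and ergo-1 at 7.71 RPM per kb. Lowest were the sperm pathway genes alg-3 at 2.25 and alg-4 at 1.52, and the miRNA Argonaute genes alg-2 at 1.70 and alg-1 at 1.14 RPM per kb. The 3 highest genes held between 83.2% and 91.1% of the reads of all 10 in every library.

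The order held within libraries for the upper genes and not for the lower ones. In 6 of 6 libraries prg-1 held more RPM per kb than csr-1, and csr-1 more than prg-2, although the ranges over the 6 libraries overlapped, with 109.1 to 268.7 at prg-1, 47.6 to 208.5 at csr-1 and 34.6 to 100.1 at prg-2. All values at prg-2 lay above the highest at rde-1, which was 22.5 RPM per kb. Neither rde-1 nor hpo-24 led the other, as each was the higher one in 3 of 6 libraries. The values at hpo-24, from 9.31 to 14.2 RPM per kb, lay above those at ergo-1, from 6.33 to 8.98, and these lay above the highest at alg-3, which was 3.19. Among alg-1 to alg-4 the ranges of neighbours overlapped. Ranked by mean RPM among all loci, prg-1 stood at 269 and csr-1 at 296, and these 4 lowest genes stood between 7244 and 8300.

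**Figure D1:**
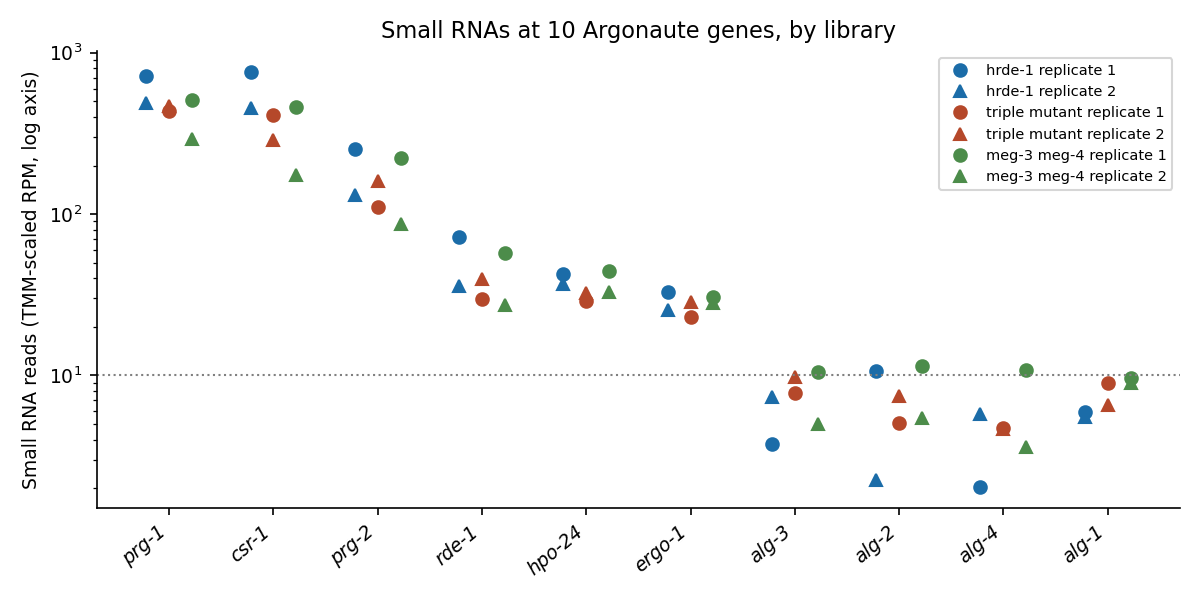
Small RNA reads at the 10 Argonaute genes in each of the 6 libraries, as TMM-scaled RPM on a log axis, with genes in the order of their mean RPM per kb. Colours are strains, circles are replicate 1, triangles are replicate 2, and the dotted line is the mean of 10 used as a filter; the 4 genes at the right stay between 2.03 and 11.5 RPM.

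In the piRNA branch, prg-1 (D2030.6, WBGene00004178, chromosome I) held 716.4 and 490.9 RPM in the hrde-1 libraries, 435.5 and 470.1 in triple mutants, and 506.4 and 290.8 in meg-3 meg-4. Both hrde-1 libraries lay above both triple mutant libraries at prg-1, while the meg-3 meg-4 libraries overlapped each of the other strains. Between hrde-1 and the triple mutant, 54.8% of the 6469 loci whose mean reached 10 RPM were separated in one or the other direction. The prg-2 locus (C01G5.2, WBGene00004179, chromosome IV), which the reference annotation classes as a pseudogene, held 252.9 and 131.2 RPM in hrde-1, 111.0 and 159.8 in triple mutants, and 223.4 and 87.3 in meg-3 meg-4. All 3 strains overlapped at prg-2. Within a library, prg-2 held between 0.255 and 0.441 reads for each read at prg-1, and the lowest and the highest of these ratios came from the triple mutant replicate 1 and the meg-3 meg-4 replicate 1. As prg-1 and prg-2 are related copies and the treatment of reads that map to several places is not given in the sources used here, the division of reads between them is uncertain.

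The csr-1 gene (F20D12.1, WBGene00017641, chromosome IV), which encodes the Argonaute of germ line transcripts, held 764.7 and 457.4 RPM in hrde-1, 412.8 and 289.2 in triple mutants, and 458.5 and 174.5 in meg-3 meg-4. Both hrde-1 libraries again lay above both triple mutant libraries, where 54.8% of the loci tested were separated in one or the other direction. The meg-3 meg-4 replicate 1 library lay just above the lower hrde-1 library. The reads at csr-1 for each read at prg-1 came to 1.07 and 0.932 in hrde-1, 0.948 and 0.615 in triple mutants, and 0.905 and 0.600 in meg-3 meg-4. In this ratio the hrde-1 libraries overlapped the triple mutant and lay above both meg-3 meg-4 libraries.

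Among the genes of primary small interfering RNA pathways, ergo-1 (R09A1.1, WBGene00019971, chromosome V) held 32.8 and 25.5 RPM in hrde-1, 23.1 and 28.6 in triple mutants, and 30.7 and 28.3 in meg-3 meg-4. It was the most even of the 6 genes above the filter across the strains, with means of 29.1 ± 5.19, 25.9 ± 3.86 and 29.5 ± 1.70 RPM (SD, n = 2 each). The rde-1 gene (K08H10.7, WBGene00004323, chromosome V) held 72.5 and 35.7 RPM in hrde-1, 29.6 and 39.4 in triple mutants, and 57.5 and 27.5 in meg-3 meg-4, and all strains overlapped. The sperm 26G genes alg-3 (T22B3.2, WBGene00011910, chromosome IV) and alg-4 (ZK757.3, WBGene00006449, chromosome III) held 3.77 to 10.5 and 2.03 to 10.8 RPM in a library. At alg-3 both triple mutant libraries, with 7.77 and 9.84 RPM, lay above the hrde-1 libraries, with 3.77 and 7.39 RPM. These 4 values rest on 43, 21, 26 and 36 reads. Of the 6469 loci above the filter, 54.8% were separated between these strains in one or the other direction.

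Of the miRNA Argonaute genes, hpo-24 (T23D8.7, WBGene00011945, chromosome I) held 42.4 and 36.8 RPM in hrde-1, 28.9 and 32.3 in triple mutants, and 44.2 and 32.7 in the meg-3 meg-4 libraries. The triple mutant libraries were the lowest pair at hpo-24, with the lower meg-3 meg-4 library next to them. The main miRNA Argonaute gene, alg-1 (F48F7.1, WBGene00000105, chromosome X), held 5.95 and 5.55 RPM in hrde-1, 9.04 and 6.56 in triple mutants, and 9.62 and 9.04 in meg-3 meg-4. Its hrde-1 libraries were the lowest pair, on 41 and 27 reads. Between pairs of strains, 43.5% to 54.8% of the loci above the filter were separated in one or the other direction. The alg-2 gene (T07D3.7, WBGene00000106, chromosome II) held 2.26 to 11.5 RPM in a library, and both of these extremes fell outside the triple mutant, whose libraries held 5.06 and 7.50 RPM.

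Other annotated genes overlap some of these loci, and whether counting used strand is not given in the sources used here. The neighbour with the most reads of its own was pei-2, on the strand opposite to ergo-1, with 18 to 69 reads in a library against 61 to 226 at ergo-1. At prg-1 the opposite-strand gene D2030.12 held 6 to 24 reads, and at hpo-24 the same-strand T23D8.11 held 3 to 18 and T23D8.12 held 3 to 21. The genes counted at csr-1, alg-1 and alg-2 held at most 4 reads in a library, and no annotated gene overlaps prg-2, rde-1, alg-3 or alg-4.

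The 2 libraries of a strain were then set against each other. In meg-3 meg-4, replicate 1 stood above replicate 2 at 10 of the 10 genes, and by more than 1.5 times at 7, while over the 6469 loci whose mean reached 10 RPM replicate 1 was higher at 53.1% and more than 1.5 times higher at 27.7%. The ratio of replicate 1 to replicate 2 in this strain was 2.63 at csr-1, 2.56 at prg-2, 2.09 at rde-1 and 1.74 at prg-1, but 1.08 at ergo-1 and 1.35 at hpo-24. In hrde-1, replicate 1 was higher at 8 genes, with 2.03 at rde-1, 1.93 at prg-2, 1.67 at csr-1 and 1.46 at prg-1. The ratio was 4.69 at alg-2, on 73 and 11 reads, and lay below 1 at alg-3 (0.511) and alg-4 (0.353). Over the 6469 loci, replicate 1 of hrde-1 was higher at 47.5% and more than 1.5 times higher at 17.8%. In the triple mutant no gene had a ratio above 1.5, and replicate 1 was the higher one at 3 genes, with csr-1 at 1.43 and prg-2 at 0.694. Over the 6469 loci, 7.08% had a ratio above 1.5 in this strain, and replicate 1 was higher at 46.5%. The median ratio over the 6469 loci was 0.962 in hrde-1, 0.983 in triple mutants and 1.04 in meg-3 meg-4. Replicate 1 thus stood above replicate 2 in both hrde-1 and meg-3 meg-4 at the same 8 genes, all but alg-3 and alg-4.

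**Figure D2:**
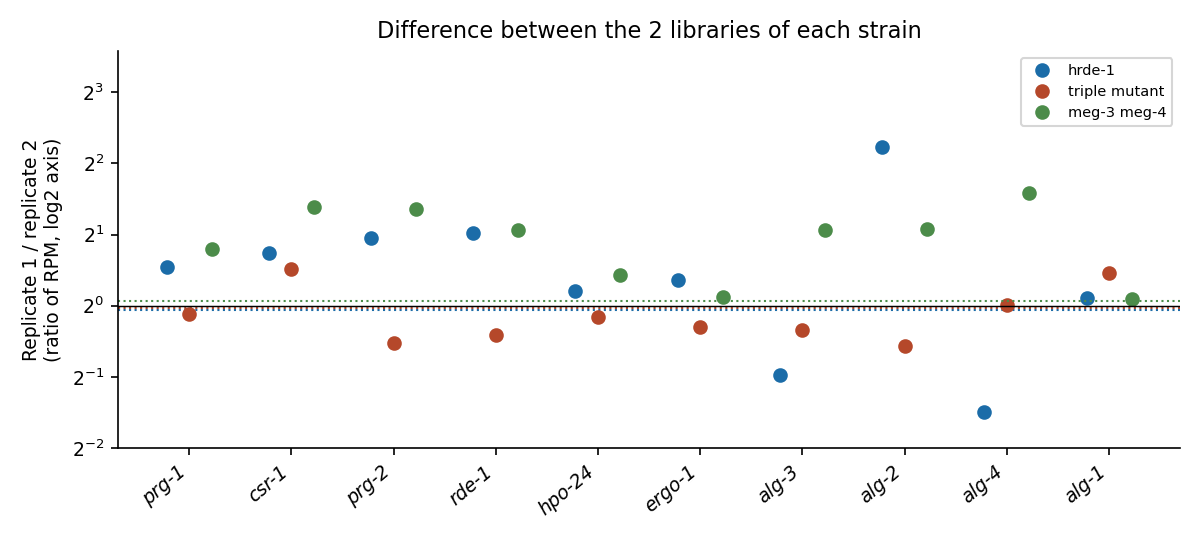
Ratio of replicate 1 to replicate 2 in each strain at the 10 Argonaute genes (TMM-scaled RPM, log2 axis). Dotted lines are the medians over 6469 loci (0.962, 0.983 and 1.04), the solid line is a ratio of 1, and the meg-3 meg-4 points lie above that line at 10 of 10 genes.

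By the authors' fold changes against the wild type, small RNAs at the piRNA and CSR-1 Argonaute genes were higher in the hrde-1 mutant. The scaling behind those fold changes is not stated in the sources used here. No N2 library values were set beside them, so the direction was not checked. At csr-1 the authors' deposited table for hrde-1 over N2 gives a log2 fold change of 1.47 (adjusted p = 2.7e-04), at prg-2 1.20 (adjusted p = 0.0119) and at prg-1 0.98 (adjusted p = 0.0159). These 3 of the 10 genes were called, all of them higher, where the authors' deposited table calls 15.9% of the loci with an adjusted p, 8.75% higher and 7.19% lower. The other 7 genes were not called in the authors' deposited table, with log2 fold changes between −0.81 at alg-1 and 0.73 at alg-2. The median over the 10 genes was 0.29, and over all loci 0.07. The called genes are also the 3 with the most reads, and the hrde-1 replicate 1 library was the higher one at each of them.

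In the triple mutant the values at these 3 genes were smaller. The authors' deposited table for triple mutants over N2 gives a log2 fold change of 0.47 at prg-1 (adjusted p = 0.0491), 0.57 at csr-1 (adjusted p = 0.0527) and 0.57 at prg-2 (adjusted p = 0.0847), so that prg-1 was called higher by a small margin and the others were not called. The library values beside these fold changes are scaled to totals, which is not stated for the fold changes, and on totals the direction at prg-1 and csr-1 is in doubt, as it was not settled here. The ergo-1 gene was called lower, with a log2 fold change of −0.95 (adjusted p = 0.00683). Its value in the authors' deposited table for hrde-1 over N2 pointed the same way without a call, at −0.67 (adjusted p = 0.196). With 1 gene higher and 1 lower, 2 of 10 genes were called, where 18.8% of all loci are called in the authors' deposited table, and the median of the 10 genes was 0.02 against −0.02 over all loci. Both tables have N2 as their control, and the difference between their fold changes was not tested. The 2 strains are compared directly below. There limma called none of prg-1, csr-1, prg-2 and ergo-1 in the triple mutant against hrde-1 (limma adjusted p of 0.418 to 0.795).

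No Argonaute gene of the 10 was called in the authors' deposited table for triple mutants over meg-3 meg-4, where 4.33% of all loci are called. The log2 fold changes there ran from −0.67 at alg-4 to 0.13 at prg-1, with adjusted p-values between 0.997 and 0.998. Subtracting this table from that for triple mutants over N2 leaves a value for meg-3 meg-4 over N2, which mixes separately scaled tables and has no test. From the authors' deposited tables it came to 0.33 at prg-1, 0.82 at prg-2, 0.47 at csr-1 and −0.69 at ergo-1 on the log2 scale.

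**Figure D3:**
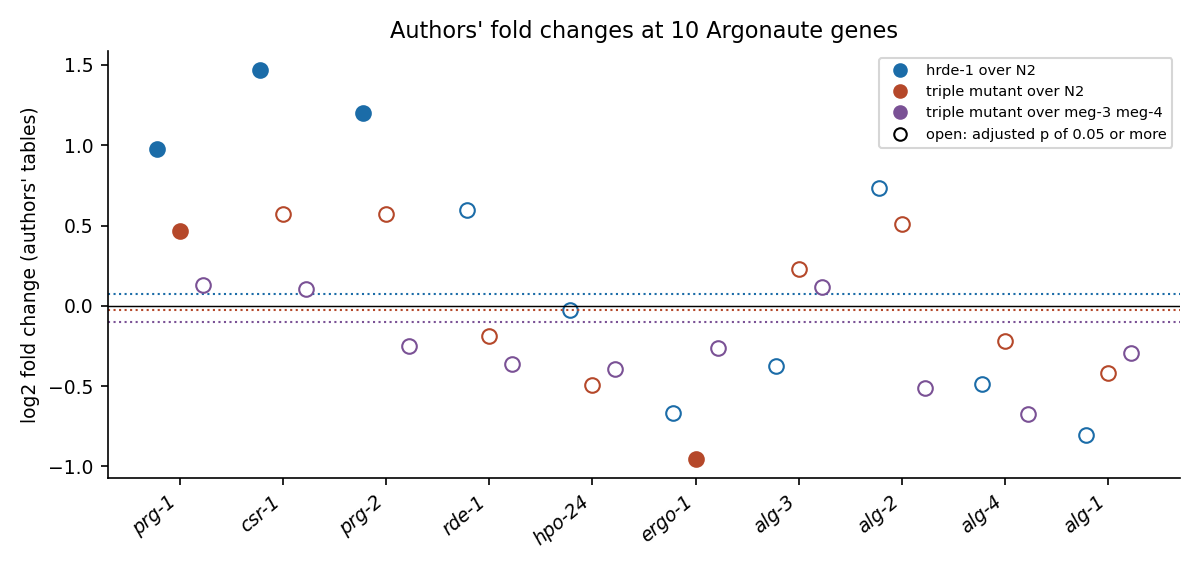
Log2 fold changes of the 10 Argonaute genes in the authors' 3 deposited tables. Filled points have an adjusted p under 0.05, open points do not, and dotted lines are the medians over all loci with an adjusted p (0.07, −0.02 and −0.10); csr-1, prg-2 and prg-1 are filled for hrde-1 over N2, prg-1 and ergo-1 for the triple mutant over N2.

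The mutant strains were then compared with one another by limma on log2 values with a pseudocount of 1, for loci whose mean reached 10. Of the 10 genes, prg-1, prg-2, csr-1, ergo-1, rde-1 and hpo-24 passed this filter, and alg-1, alg-2, alg-3 and alg-4 did not. None of the 6 tested genes passed an adjusted p of 0.05 in any of the 3 comparisons, by limma, by edgeR's quasi-likelihood test or by DESeq2. At an unadjusted p under 0.05, limma had 1 gene, csr-1 in meg-3 meg-4 against hrde-1, and edgeR and DESeq2 had 0 in each comparison.

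Setting triple mutants against meg-3 meg-4 asks what the loss of hrde-1 does where MEG-3 and MEG-4 are missing. The labels call only the meg-3 meg-4 strain outcrossed, and whether these strains differ in more than the hrde-1 allele is not given. It was made on the deposited signal, and 7.75% of 6067 loci were called. At prg-1 the deposited signal was 408.8 ± 22.8 in the triple mutant and 373.2 ± 131.2 in the meg-3 meg-4 libraries (SD, n = 2 each). The log2 fold change was 0.18 (SE 0.35, 95% interval −0.57 to 0.92, limma adjusted p = 0.890). At csr-1 the deposited signal was 316.8 ± 78.3 and 295.1 ± 179.3 (SD, n = 2 each), for a log2 fold change of 0.23 (SE 0.42, 95% interval −0.67 to 1.12, limma adjusted p = 0.879). The other 4 genes had log2 fold changes between −0.36 at hpo-24 and −0.13 at prg-2, with limma adjusted p-values of 0.727 to 0.930, and the median of all loci was −0.11. On the deposited signal the triple mutant libraries both lay below the meg-3 meg-4 libraries at ergo-1, hpo-24 and alg-1. On that signal 43.5% of the loci tested were separated in one direction or the other. With the TMM-scaled RPM given above, hpo-24 stayed separate, while the strains overlapped at ergo-1 and alg-1.

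Setting the triple mutant against hrde-1 asks what the loss of meg-3 and meg-4 does where HRDE-1 is missing, and 10.3% of 6469 loci were called. At csr-1 the mean was 351.0 ± 87.4 RPM in the triple mutant and 611.1 ± 217.3 in hrde-1 (SD, n = 2 each), and the log2 fold change was −0.77 (SE 0.45, 95% interval −1.75 to 0.20, limma adjusted p = 0.418). At prg-1 the means were 452.8 ± 24.5 and 603.6 ± 159.4 RPM (SD, n = 2 each), for a log2 fold change of −0.39 (SE 0.37, 95% interval −1.18 to 0.40, limma adjusted p = 0.612). At rde-1 the value was −0.56 (SE 0.42, 95% interval −1.47 to 0.35, limma adjusted p = 0.531). Without hrde-1 replicate 1 the value was −0.33 at csr-1 and −0.05 at prg-1, and without hrde-1 replicate 2 it was −1.29 and −0.81, none of them called. The values at all 6 genes were negative, and so was the median of all loci, at −0.18. The triple mutant libraries both lay below the hrde-1 libraries at prg-1, csr-1 and hpo-24 and above them at alg-1 and alg-3, and 54.8% of the loci tested were separated in one or the other direction.

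Between meg-3 meg-4 and hrde-1, where 16.4% of 6469 loci were called, csr-1 had the largest difference of the 6 genes. Its mean was 316.5 ± 200.8 RPM in meg-3 meg-4 and 611.1 ± 217.3 in hrde-1 (SD, n = 2 each), and the log2 fold change was −1.06 (SE 0.45, 95% interval −2.03 to −0.09, limma adjusted p = 0.152). Without the meg-3 meg-4 replicate 1 library the value was −1.66 and csr-1 passed the test (limma adjusted p = 0.0015), a fit in which the lone meg-3 meg-4 library is taken to vary like the other groups. Without meg-3 meg-4 replicate 2 the value was −0.37 (limma adjusted p = 0.824), and without hrde-1 replicate 1 it was −0.48 (limma adjusted p = 0.761). The library that remains in the fit with the call, meg-3 meg-4 replicate 2, is the one with 3145 RPM at yolk protein genes and 259.0 at muscle genes. At prg-1 the log2 fold change was −0.63 (SE 0.37, 95% interval −1.42 to 0.16, limma adjusted p = 0.357), and it ran from −0.93 to −0.15 as single libraries were left out, with −0.15 without hrde-1 replicate 1 and −0.23 without the second meg-3 meg-4 library. The remaining genes lay between −0.38 at prg-2 and 0.03 at ergo-1, and the median of all loci was −0.15. Only alg-1 had separate groups, with both meg-3 meg-4 libraries above both hrde-1 libraries, where 43.6% of the loci tested were separated.

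**Figure D4:**
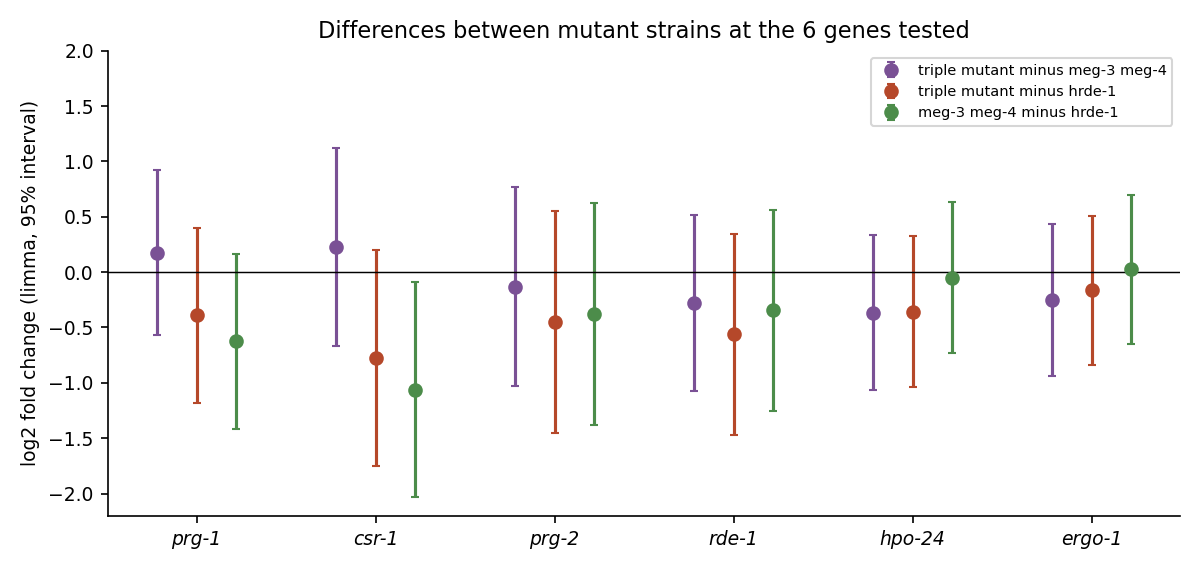
Log2 fold changes with 95% intervals from limma at the 6 Argonaute genes above the filter, for the 3 comparisons between mutant strains. Every interval crosses 0 except that of csr-1 for meg-3 meg-4 minus hrde-1 (−2.03 to −0.09), whose adjusted p was 0.152.

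With no filter on the mean, the 4 low genes could be fitted as well. Against hrde-1, alg-1, alg-2, alg-3 and alg-4 had limma log2 fold changes of 0.37, 0.22, 0.62 and 0.33 in the triple mutant (adjusted p of 0.704 to 0.916) and of 0.61, 0.54, 0.39 and 0.71 in meg-3 meg-4 (adjusted p of 0.595 to 0.798). For the triple mutant against meg-3 meg-4 the values were −0.30, −0.37, 0.18 and −0.42 (limma adjusted p of 0.830 to 0.887). Each of these genes rests on 10 to 73 reads in a library.

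The size of the differences from hrde-1 depended on how the libraries were scaled, in step with the median of all loci. For the triple mutant minus hrde-1 the median was −0.18 with TMM, −0.60 when libraries were scaled to their totals and −1.27 when they were scaled to miRNA reads, which took a smaller share of the hrde-1 libraries. The value at csr-1 moved with it, from −0.77 to −1.21 and −1.89, and relative to the median it was, on the log2 scale, −0.60, −0.61 and −0.63. Relative to the median, ergo-1 stood between 0.01 and 0.02 and prg-1 between −0.24 and −0.21 under these scalings. With miRNA scaling all 6 tested genes passed the limma test as lower in the triple mutant, at adjusted p-values of 0.0179 to 0.0388, and so did 5125 of 6784 loci in one or the other direction. In meg-3 meg-4 against hrde-1, miRNA scaling had prg-1 and csr-1 passing, at log2 fold changes of −1.55 and −1.98 (limma adjusted p = 0.0191 and 0.0199), with a median of −1.06. Of all loci, 3106 of 6784 passed there in one or the other direction. Scaling by DESeq2 size factors left the median at −0.20 for the triple mutant minus hrde-1 and no gene of the 10 called.

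**Figure D5:**
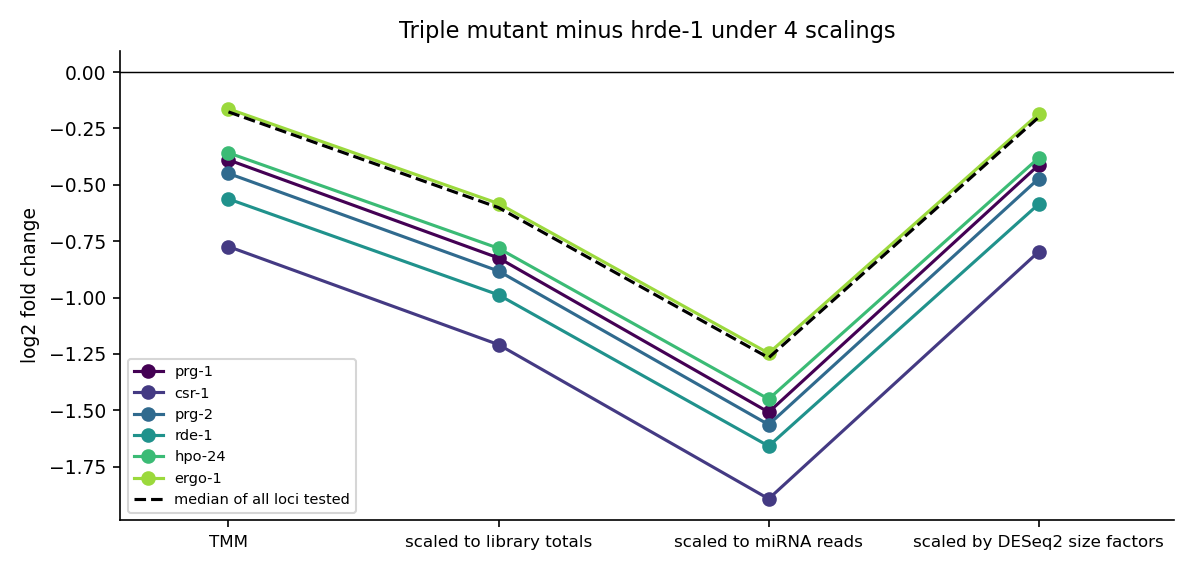
Log2 fold change of the triple mutant minus hrde-1 at the 6 Argonaute genes above the filter, under 4 scalings of the libraries. The dashed line is the median of all loci tested (−0.18, −0.60, −1.27 and −0.20), and the values at csr-1 lie at −0.63 to −0.60 relative to it.

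The partners of these Argonautes were looked at in 4 lists, drawn up by pathway, which hold 62 genes found in the tables. Of these, limma called 1 higher and 2 lower of 56 in the triple mutant against meg-3 meg-4, 1 higher of 59 in the triple mutant against hrde-1, and 2 higher of 59 in meg-3 meg-4 against hrde-1. These shares lie below those of all loci, which were 7.75%, 10.3% and 16.4%. Each of these calls fell in the list for 26G-RNAs and RDE-1, and they were at rde-11, sid-1 and eri-6. None of 15 piRNA partners, 17 miRNA partners and 7 or 8 CSR-1 partners was called by limma in any of the 3 comparisons.

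In the authors' deposited table for hrde-1 over N2, 7 of the 62 partners were higher and 1 was lower, in all a smaller share than the 15.9% called over all loci, of which 8.75% were higher and 7.19% lower. Of 17 piRNA partners 4 were higher, C06A5.6 with a log2 fold change of 1.34 (adjusted p = 7.9e-04), tofu-4 with 1.33 (adjusted p = 0.00294), prde-1 with 1.07 (adjusted p = 0.0317) and tofu-3 with 1.02 (adjusted p = 0.0164). The genes tofu-3, tofu-4 and prde-1 are needed to make 21U-RNAs. The median of this list was 0.78, against 0.07 over all loci. It was 0.62 in the CSR-1 list, 0.30 in the miRNA list and 0.08 in the list for 26G-RNAs and RDE-1. In the other lists pgl-1, a P granule protein gene listed with CSR-1, stood at 0.93 (adjusted p = 0.0299), drh-1, a helicase gene listed with RDE-1, at 1.27 (adjusted p = 0.00224), and cgh-1, a germ granule helicase gene listed with the miRNA Argonautes, at 1.43 (adjusted p = 4.8e-04). The one lower partner was pup-3 at −1.39 (adjusted p = 9.7e-05). At C06A5.6 the means were 384.9 ± 131.2 RPM in hrde-1, 235.8 ± 35.1 in triple mutants and 172.3 ± 38.0 in the meg-3 meg-4 strain (SD, n = 2 each), and at cgh-1 118.0 ± 33.9, 74.7 ± 1.64 and 86.3 ± 34.8. The hrde-1 strain had the highest mean at both, as it had at prg-1, prg-2 and csr-1. All of these genes were named for a higher call in hrde-1 over N2. That call used the same hrde-1 libraries, so a high hrde-1 mean is favoured by the choice. Between the mutant strains, limma called none of them.

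In the authors' deposited table for triple mutants over N2, 5 of 61 partners were higher and 6 lower, in all a share near the 18.8% called over all loci. Of the piRNA partners C06A5.6 remained higher, at 0.53 (adjusted p = 0.0408), and no other was called. The other higher partners by the rule for named genes were eri-6, a helicase gene of the 26G pathway, at 1.68 (adjusted p = 8.1e-24), cgh-1 at 0.68 (adjusted p = 0.0352) and rde-11 at 0.59 (adjusted p = 0.00475). Lower partners were pup-3 at −1.25 (adjusted p = 6.1e-06), mut-2 at −1.22 (adjusted p = 0.0195), nhl-2 at −1.12 (adjusted p = 0.00111), rde-12 at −0.82 (adjusted p = 5.5e-04), drh-3 at −0.71 (adjusted p = 0.039) and xrn-2 at −0.70 (adjusted p = 0.00107). Of these, xrn-2, an exonuclease gene, was also lower in the authors' deposited table for triple mutants over meg-3 meg-4, at −1.13 (adjusted p = 0.0137), a table that shares the triple mutant libraries.

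Of the other Argonaute genes, 12 of 18 names listed were found in the tables and 4 had a mean high enough for limma. It called 0 of them in each comparison, where 7.75%, 10.3% and 16.4% of all loci were called. The authors' deposited tables over N2 each call 2 higher and 1 lower of 10 with an adjusted p. In that for hrde-1 over N2, which calls 15.9% of all loci, wago-1 stood at 1.20 (adjusted p = 0.00721) and ppw-2 at 1.04 (adjusted p = 0.0125), values in the range of those at prg-1, prg-2 and csr-1. There sago-1 stood at −2.34 (adjusted p = 0.0478) on 3 and 7 reads in the hrde-1 libraries. In the authors' deposited table for triple mutants over N2, wago-1 stood at 0.64 (adjusted p = 0.0398) and ppw-2 at 0.59 (adjusted p = 0.0258). There the hrde-1 locus stood at −0.90 (adjusted p = 8.4e-06). The triple mutant and the hrde-1 single mutant both carry the tm1200 allele. The authors' deposited table for hrde-1 over N2 does not call this locus. Mean RPM at the locus (± SD, 2 libraries per strain) was 528.2 ± 102.7 for the single mutant and 324.0 ± 38.6 for the triple mutant. The meg-3 meg-4 strain, without this allele, stood at 618.0 ± 5.22. Whether the allele changes the reads at this locus was not tested.

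The loci whose level over the 6 libraries was most like that of prg-1, the gene with the highest RPM per kb, were mtx-1, bath-40 and div-1, with Pearson correlations of log2(RPM + 1) of 0.999, 0.997 and 0.996. The loci most like csr-1, the gene with the lowest adjusted p in any comparison, were cct-1, csn-3 and nkcc-1, at 0.994, 0.994 and 0.993. The correlation between prg-1 and csr-1 was 0.945, which placed csr-1 at rank 200 among the loci most like prg-1, and that between prg-1 and prg-2 was 0.887, at rank 584. For ergo-1 and prg-1 it was 0.431. These correlations describe 6 libraries that fall into 3 strains and share their scaling, and the loci were picked from all loci tested for their likeness.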

How the data were processed

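Small RNAs of whole C. elegans young mothers were sequenced in 6 libraries of 3 mutant strains after 5′ polyphosphatase treatment, per the labels' protocols. The build was ce10 and the tools named are DESeq2, HTSeq, Bowtie2 and cutadapt, per the submitters' processing notes; versions, strand setting and handling of multiply mapping reads are not given in the sources used here. The authors deposited 3 tables of 42402 loci. Per the file headers, library values are fpm in all 3 deposited tables. They were treated here as a scaled signal in 2 deposited tables and as RPM in the deposited N2 table for the triple mutant, a distinction the headers do not make. Each deposited table also holds the authors' log2 fold change and adjusted p-value. The 4 per-library columns of N2 were not used.

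All library values above 0 (100%, tolerance 0.001) were whole multiples of the smallest, which was taken as 1 read. The fit of triple mutant against meg-3 meg-4 libraries used the deposited signal (4 libraries). Comparisons with hrde-1 used the recovered reads of 6 libraries, scaled with TMM (edgeR 4.0.16) to RPM and fitted together. limma 3.58.1 with an intensity trend (R 4.3.3) was fitted to log2(value + 1) over loci with a mean of at least 10, with Benjamini-Hochberg adjustment over all loci fitted and calls at an adjusted p under 0.05. Fold changes on this scale understate those of low loci. edgeR's quasi-likelihood test and DESeq2 1.42.0 on the recovered reads, other scalings, pseudocounts, no filter, a replicate block and leaving out each library were alternatives. The fits were also run on simulated counts in which all loci had the same dispersion. Those runs do not show how the fits behave at the spread of these libraries.

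Loci were matched to the Ensembl and RefSeq annotations of WBcel235, which gave names, classes, exon lengths, chromosomes and overlaps. As this is not the files' build, no coordinates are printed. The genes and lists were chosen with earlier results of these data known. The text gives all 10 genes in each comparison, up to 4 genes per pathway list and comparison that passed a test, by size, counts and single examples for the yolk and muscle lists, and the 3 loci most like 2 of the genes. The reads hold no molecular identifiers, so read numbers limit counting error only.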

Additional observations from a re-analysis of the deposited data

How the results depend on the processing

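In the triple mutant against meg-3 meg-4, no Argonaute gene was called under any alternative run. In the triple mutant against hrde-1 the count of genes called was 0 except with scaling to miRNA reads, which gave 6. In meg-3 meg-4 against hrde-1 it was 2 with scaling to miRNA reads, 1 with the replicate block, and 0 to 1 when single libraries were left out; the cause was not tested. Directions of uncalled values also turned. Scaling to totals gave −0.0068 at prg-1 for the triple mutant minus meg-3 meg-4, and −0.16 at ergo-1 for meg-3 meg-4 minus hrde-1, where miRNA scaling gave −0.87. DESeq2 gave 0.060 at hpo-24 for the latter comparison. Leaving out single libraries, the log2 fold change of the triple mutant minus meg-3 meg-4 ran from −0.19 to 0.54 at prg-1, −0.77 to 0.51 at prg-2, −0.43 to 0.89 at csr-1 and −0.76 to 0.21 at rde-1. That of the triple mutant minus hrde-1 ran from −1.07 to 0.092 at prg-2, −0.48 to 0.082 at ergo-1 and −1.21 to 0.0065 at rde-1. That of meg-3 meg-4 minus hrde-1 ran from −0.95 to 0.30 at prg-2, −0.16 to 0.40 at ergo-1, −0.86 to 0.36 at rde-1 and −0.17 to 0.25 at hpo-24.

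The labels do not say whether the replicate numbers pair libraries across strains, and they were not treated as pairs, since not all libraries of equal number deviated together. Deviations from the strain means correlated at −0.19 between hrde-1 and the triple mutant, 0.56 between hrde-1 and meg-3 meg-4, and −0.11 for meg-3 meg-4 with triple mutant libraries. With the replicate block the loci called in the triple mutant against meg-3 meg-4 went from 470 to 438, against hrde-1 from 665 to 831, and in meg-3 meg-4 against hrde-1 from 1061 to 1251, where csr-1 passed with an unchanged value of −1.06 (limma adjusted p = 0.0248). With the numbers crossed, an alternative added after seeing the data, 659 loci and none of the genes were called in the triple mutant against meg-3 meg-4.

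Over all loci, scaling to miRNA reads called 5125 in the triple mutant against hrde-1 and 3106 in meg-3 meg-4 against hrde-1, and leaving out libraries gave 207 to 880, 385 to 547 and 788 to 1257 in the 3 comparisons. In the triple mutant against meg-3 meg-4 the count was 228 without triple mutant replicate 1, 207 without its replicate 2, and rose to 880 without replicate 2 of meg-3 meg-4, and in the triple mutant against hrde-1 it was 421 without triple mutant replicate 1 and 385 without hrde-1 replicate 1. Scaling to totals moved the loci called higher from 261 of 470 to 167 of 355 in the triple mutant against meg-3 meg-4 and from 283 of 665 to 98 of 581 in the triple mutant against hrde-1. Depth limits alg-1 to alg-4 most, with 10 to 73 reads.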
